A study of Mus musculus with 60 samples.

Results

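TRBV15 and TRBV16 are neighbouring V segments of the mouse T cell receptor beta (TCRB) locus, known from antibody staining as V beta 12 and V beta 11. All rows with either segment were taken from the CD4 and the CD8 TCRB clonotype tables of donor T cells in graft-versus-host disease (GVHD). Each row of these tables is a clonotype, defined by the amino acids of its CDR3, where V, D and J segments meet, and assigned 1 V and 1 J segment. The CD4 table listed 4256 clonotypes under TRBV15 and 8510 under TRBV16, together 12766 of 85775 (14.9%). Among CD8+ T cells the numbers were 1964 and 5820, together 7784 of 82447 (9.44%). The joins hold 18 libraries each, of which 15 are analysed here, and 9 CD4 TRBV15, 12 CD4 TRBV16 and 7 CD8 TRBV16 clonotypes were at 0 in all 15.

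The donors were C57BL/6 mice, and their T cells were wild type (WT), lacked STAT3 (STAT3ko, Stat3 fl/fl with CD4-Cre) or lacked STAT3 and PD-1 (STAT3koPD-1ko, Stat3 fl/fl PD-1-/- with CD4-Cre). They were given together with T cell-depleted bone marrow of WT C57BL/6 mice to lethally irradiated WT BALB/c recipients. All day 6 groups thus shared the WT recipients, the irradiation, the WT marrow and the hematopoietic cell transplantation (HCT). Each table had 3 libraries labelled before HCT and titled Naive, from spleen, 1 per genotype, and 12 libraries of day 6 after HCT, 2 per genotype from each of liver and gut. For a day 6 sample the lymphocytes of 3 recipients were pooled and sorted as H-2Kb+ TCRβ+ CD4+ or CD8+ cells, and H-2Kb is carried by the transferred T cells and by cells of the donor marrow alike. CD4-Cre deletes in the thymus, in the precursors of both CD4+ and CD8+ T cells. The tables list rearranged receptors and no other transcripts, so no cell type marker could be checked.

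BALB/c mice carry endogenous mouse mammary tumour viruses whose superantigens, presented by the class II molecule I-E, bind receptors by their V beta segment and not by the CDR3. T cells with V beta 3, 5, 11 or 12 are deleted in the thymus of such mice. C57BL/6 mice make no I-E, and T cells with these segments persist there, so that donor T cells with TRBV15 and TRBV16 first meet I-E in the recipient. The segments TRBV26 (V beta 3) and TRBV12-1 and TRBV12-2 (V beta 5) stand in the same class and were kept as a list beside both members. TRBV2, TRBV13-1, TRBV13-2 and TRBV13-3 have no such tie to I-E and served for reference.

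Trbv15 (ENSMUSG00000076472.2) lies on the plus strand of chromosome 6 at chr6:41141188-41141658 in the build mm10 (GRCm38), with exons at 41141188 to 41141259 and at 41141361 to 41141658. Trbv16 (ENSMUSG00000076473.3) follows at chr6:41151740-41152230, also on the plus strand, with exons at 41151740 to 41151839 and at 41151933 to 41152230. The CDR3 starts at the conserved cysteine near the end of the second exon of each. From that cysteine on, both germline segments have 17 bases, shown here because they are the germline V bases that a listed CDR3 can hold. Capitals mark the 3 bases at which both differ:
TRBV15: tgtgcCagcagTttagC
TRBV16: tgtgcAagcagCttagA

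Both ends encode the amino acids CASSL, as do those of 8 of the 29 V segments of the tables, among them TRBV12-1 and TRBV12-2. The sixth base sets TRBV16 apart, since no other V segment of the tables starts with its first 7 bases. Of the TRBV16 clonotypes, 99.7% in CD4+ and 99.7% in CD8+ T cells began with these 7 germline bases, and of the TRBV15 clonotypes 99.5% and 99.0% began with their own. The germline L was retained in part only. CASSL opened 31.5% of the TRBV15 and 54.8% of the TRBV16 clonotypes in CD4+ T cells, and 32.3% and 46.0% in CD8+ T cells. The median CDR3 had 14 amino acids for either segment in either table.

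A few rearrangements show how much of a listed CDR3 matches its germline V segment. In the following, lower case letters match the germline V segment on the left and the germline J segment on the right, and capitals mark the bases that match neither. The first is the TRBV16 clonotype of CD4+ T cells with the highest mean in liver, and the others were each the highest before HCT or in gut for their segment and table, or the one with the highest mean among those listed above 0 in all 15 libraries:
CD4 TRBV16 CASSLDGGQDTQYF: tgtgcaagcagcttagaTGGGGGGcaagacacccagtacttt
CD4 TRBV16 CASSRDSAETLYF: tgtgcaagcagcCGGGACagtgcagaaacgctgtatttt
CD4 TRBV16 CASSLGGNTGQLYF: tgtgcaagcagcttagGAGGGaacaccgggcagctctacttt
CD4 TRBV15 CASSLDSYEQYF: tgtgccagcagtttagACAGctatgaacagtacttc
CD8 TRBV15 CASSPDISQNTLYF: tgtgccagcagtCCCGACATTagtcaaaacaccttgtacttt
CD8 TRBV16 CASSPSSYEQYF: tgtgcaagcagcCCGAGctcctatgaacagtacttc

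Usage of a segment is the sum of the frequencies of its clonotypes, as a percentage of all listed frequencies of the library. The deposited values are fractions of reads and give no counts, so the depth behind them is unknown. Shares of reads do not separate fewer cells with a segment from less receptor RNA per cell. Only clonotypes found in at least 2 libraries were listed. These made up 47.8% to 51.5% of the reads of the 3 gut libraries of replicate 2 in CD4+ T cells and 53.2% to 58.0% in CD8+ T cells, and at least 81.5% in every other library. Libraries of a table also shared clonotypes unevenly. The summed smaller shares of member clonotypes in a library before HCT and in liver replicate 1 of the same genotype came to 36.5% to 58.7%, over both segments and both tables, and to 4.47% to 14.97% with liver replicate 2. Gut replicate 1 overlapped with liver replicate 1 (26.4% to 44.1%) and with liver replicate 2 of its genotype (28.9% to 41.8%), but gut replicate 2 with neither (5.44% to 18.5%). With the library before HCT of the same genotype, gut replicate 1 overlapped by 16.7% to 32.8% and gut replicate 2 by 4.01% to 14.7%. The 2 gut against liver differences of the members that passed are therefore also given for each replicate number alone.

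Each CDR3 stands in a table once, under a single V segment, so a CDR3 that several V segments can encode is counted for 1 of them. This limit applies to every usage value below. Of the 1709 CD4 TRBV15 sequences that the CD8 table also listed, it gave TRBV15 for 130 (7.61%) and most often TRBV29, for 349. Of the 3043 shared CD4 TRBV16 sequences, 650 (21.4%) had TRBV16 there. In the other direction the same segment was given for 24.1% of the shared CD8 TRBV15 and 41.4% of the shared CD8 TRBV16 sequences, and over all segments for 6335 of 17941 (35.3%). The clonotypes listed under another segment in the other table held 43.7% ± 3.87 (SD, n = 3) of the CD4 TRBV16 frequency before HCT, 41.9% ± 1.92 (n = 6) in liver and 53.5% ± 8.996 (n = 6) in gut. For CD4 TRBV15 the means were 53.2%, 53.5% and 61.3%, beside 27.1%, 24.8% and 25.0% over all CD4 segments. For CD8 TRBV15 they were 28.5%, 34.3% and 44.6% and for CD8 TRBV16 30.8%, 27.3% and 32.8%, beside 28.6%, 27.9% and 35.3% over all CD8 segments. The listed CDR3s of TRBV26 did not share this limit, since nearly all of them in the CD4 table did not run from C to F or W and so could not coincide with those of other segments that do.

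TRBV16 was the most used V segment of CD4+ T cells before HCT and in liver, and a lesser one in gut. Its usage was 18.5% in WT, 16.5% in STAT3ko and 17.0% in STAT3koPD-1ko T cells before HCT, a mean of 17.3% ± 1.05 (SD, n = 3). In the 6 liver libraries it ran from 14.7% to 16.9% with a median of 15.1%. All 9 of these libraries had TRBV16 in first place among the V segments.

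In gut replicate 1 TRBV16 usage was 11.3% in WT, 7.72% in STAT3ko and 9.55% in STAT3koPD-1ko T cells. In gut replicate 2 it was 13.95%, 13.8% and 12.002%. All 6 gut libraries lay below all 6 liver libraries, and TRBV16 held place 2 or 3 in them. Within each genotype, replicate 1 lay below replicate 2, whose listed clonotypes covered a smaller part of the reads, and the part of this coverage in the usage was not tested.

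The mean in gut was 11.4% ± 2.44 (n = 6), against 15.4% ± 0.87 (n = 6) in liver. The difference was -0.46 (SE 0.14) on the scale of log2(percent + 0.1), 0.727-fold (limma, adjusted p = 0.0083), but it turned to 0.015 when each clonotype counted once in place of its reads. Against the libraries before HCT, gut was lower by a log2 difference of -0.63 (SE 0.16), 0.647-fold (limma, adjusted p = 0.0018). Liver against before HCT gave -0.17 (SE 0.16, adjusted p = 0.44). Leaving out any 1 library kept the gut against liver call in 12 of 12 fits, with differences from -0.56 to -0.35. Replicate 1 alone gave -0.68 (adjusted p = 0.0010) and replicate 2 alone -0.24 (adjusted p = 0.24).

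TRBV15 stayed within a narrow range in CD4+ T cells. Its usage was 4.81%, 5.14% and 6.54% in WT, STAT3ko and STAT3koPD-1ko T cells before HCT. In liver it ran from 4.63% to 6.44% with a median of 6.01%, and in gut from 5.09% to 7.13% with a median of 5.51%. The ranges of the 3 tissues overlapped throughout.

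The means were 5.49% ± 0.92 (SD, n = 3), 5.71% ± 0.74 (n = 6) and 5.80% ± 0.83 (n = 6). Gut against liver differed by 0.02 (SE 0.11, limma, adjusted p = 0.85), gut against before HCT by 0.08 (SE 0.13, adjusted p = 0.60) and liver against before HCT by 0.06 (SE 0.13, adjusted p = 0.72) on the log2 scale. TRBV15 thus passed none of these 3 tests in CD4+ T cells, though other totals, given below, moved its gut differences past the threshold in either direction. As other segments lost share, it moved from place 5 to 9 among the V segments before HCT and 6 to 9 in liver to place 4 to 6 in gut.

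**Figure D1:**
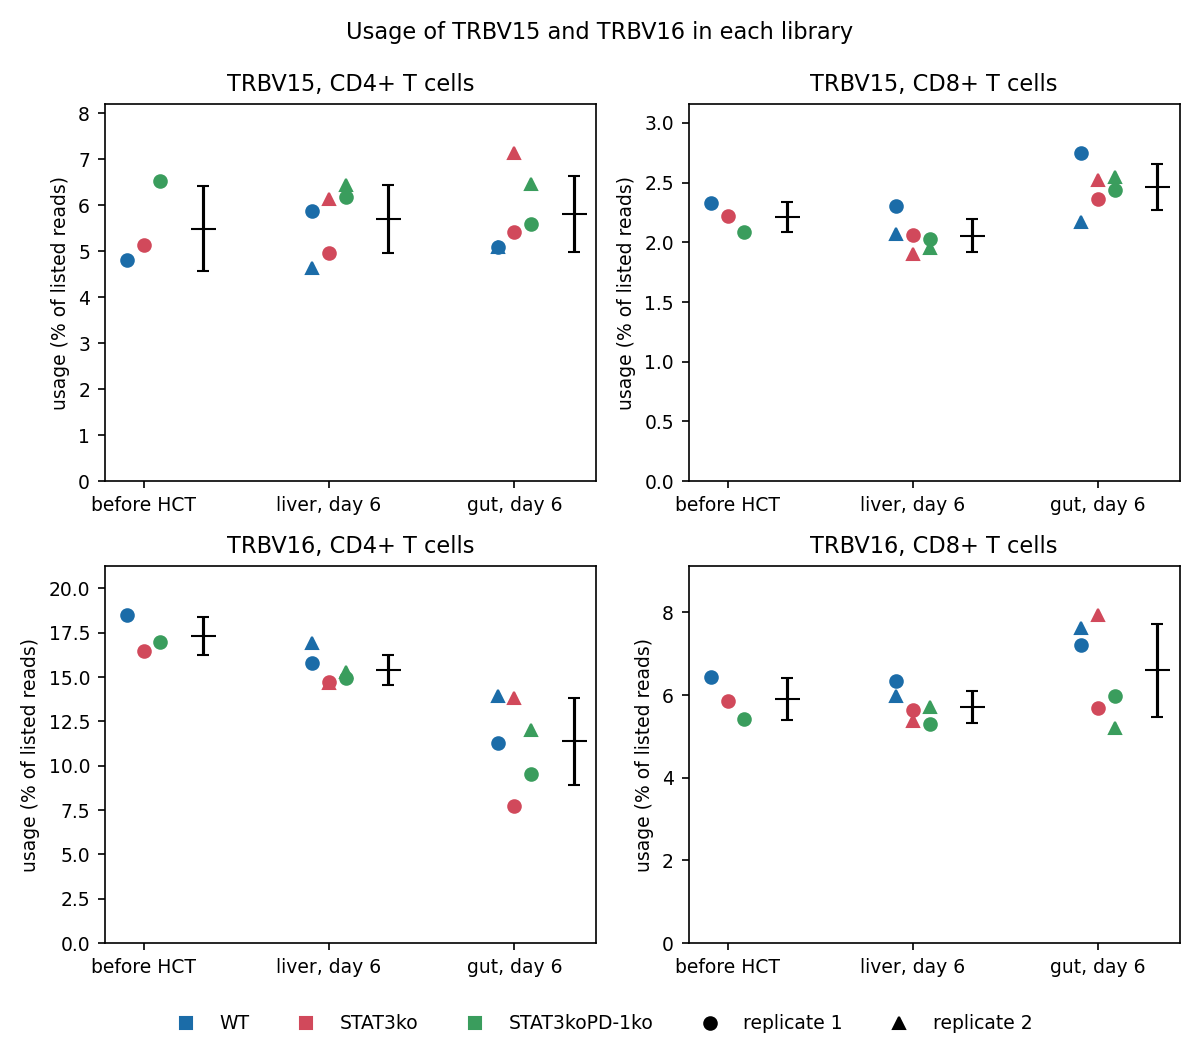
Usage of TRBV15 and TRBV16 in percent of listed reads (y axis, from 0) in each library, by tissue (x axis), with genotypes in colour, replicate numbers as symbols and the mean and SD in black. In CD4+ T cells the 6 gut libraries of TRBV16 sit between 7.72% and 14.0%, all below the liver libraries, while those of TRBV15 overlap with liver.

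Most segments moved between tissues in CD4+ T cells, and the members have to be read against that. Of the 21 V segments tested, 18 passed the test in gut against liver (85.7%), 5 higher and 13 lower. In gut against before HCT 17 passed (81%), 5 higher and 12 lower, and in liver against before HCT 2 passed (9.52%), TRBV26 and TRBV23. The median difference of the 21 segments was -0.46 in gut against liver, the value of TRBV16 itself, and -0.40 in gut against before HCT. In gut against liver the TRBV16 fall was that of the middle segment of the table, and the TRBV15 difference of 0.02 lay above it. Against before HCT TRBV16, at -0.63, fell further than the middle segment.

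The 3 other segments of the superantigen class went the other way from TRBV16. TRBV26 rose from 4.86% ± 0.71 (SD, n = 3) before HCT to 9.09% ± 1.83 (n = 6) in liver and 25.4% ± 1.76 (n = 6) in gut. Nearly all of its clonotypes, 17810 of 17815, do not run from C to F or W as listed, although the germline end of TRBV26 encodes CASSL as well. The rise rests on these listed CDR3s, and whether they come from V beta 3 T cells was not tested. TRBV12-1 was at 0.903% ± 0.18 (n = 3), 1.04% ± 0.18 (n = 6) and 1.49% ± 0.23 (n = 6), and TRBV12-2 at 1.05% ± 0.25 (n = 3), 1.24% ± 0.17 (n = 6) and 2.01% ± 0.32 (n = 6). All 3 passed the test as higher in gut than in liver, with a median log2 difference of 0.65 against -0.46 over all segments tested, and all 3 as higher in gut than before HCT. Taken as percent of all reads, the differences against liver ran from 0.02 to 0.99, and 1 of 3 passed. Keeping only CDR3s from C to F or W removed nearly all TRBV26 reads, so that setting could not test TRBV26. The differences then ran from 0.038 to 0.96, and 2 of 3 passed.

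The reference segments fell, although with TRBV26 and TRBV23 out of the total their differences ran from -0.37 to 0.14 and 1 of 4 passed. TRBV2, TRBV13-1, TRBV13-2 and TRBV13-3 all passed as lower in gut than in liver, with log2 differences of -0.79, -0.31, -0.80 and -0.48 (limma, adjusted p = 3.3e-05, 0.015, 0.0011 and 0.0029), and all 4 as lower in gut than before HCT, or 3 of 4 without the STAT3ko library before HCT. TRBV16 lay among these reference segments and not among the superantigen segments, and TRBV15 between both lists. TRBV23, which is in neither list, rose from 1.87% ± 0.29 (SD, n = 3) before HCT to 10.6% ± 2.39 (n = 6) in gut.

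The members' own values depended on that total as well. Without TRBV26 and TRBV23, TRBV16 differed between gut and liver by -0.015 (adjusted p = 0.91) and TRBV15 by 0.47 (adjusted p = 0.0043). Against before HCT, TRBV16 then differed by -0.086 (adjusted p = 0.60) and TRBV15 by 0.62 (adjusted p = 0.00082). With the mean log usage of all segments as the reference (centred log ratio), TRBV16 differed between gut and liver by -0.30 (adjusted p = 0.070). Keeping only CDR3s from C to F or W, which removed nearly all TRBV26 reads, gave -0.16 (adjusted p = 0.31) for TRBV16 and 0.32 (adjusted p = 0.021) for TRBV15. As percent of all reads, listed or not, both were lower in gut, TRBV16 by a log2 difference of -0.96 and TRBV15 by -0.47 (adjusted p = 0.029).

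**Figure D2:**
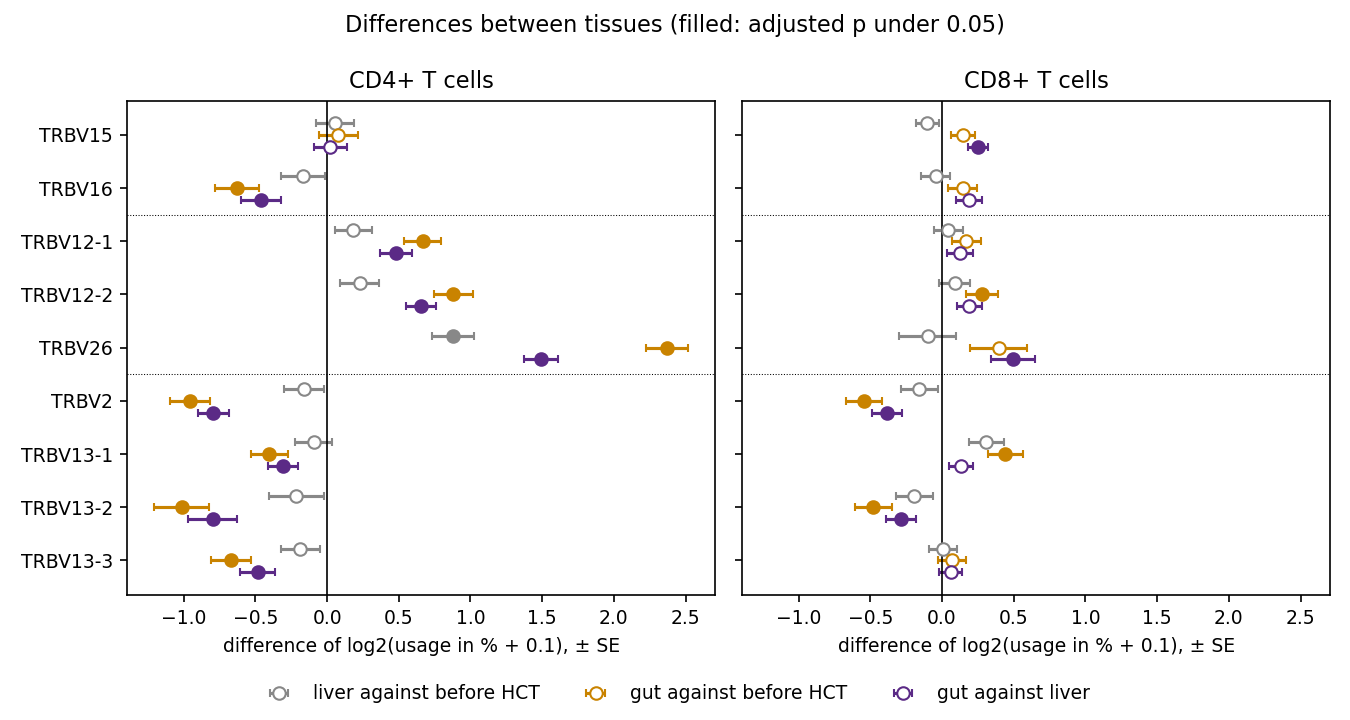
Difference of log2(usage in percent + 0.1) between tissues (x axis, with SE) for both members, the superantigen list and the reference list (y axis), with filled symbols where the adjusted p is under 0.05. In CD4+ T cells the gut differences of TRBV16 (-0.46 against liver, 0.015 when each clonotype counts once) lie with the reference segments, and TRBV12-1, TRBV12-2 and TRBV26 lie to the right of 0.

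The share of TRBV16 among the listed clonotypes, each counted once, changed less than its share of reads. It made up 12.6% ± 0.78 (SD, n = 3) of the listed clonotypes of CD4+ T cells before HCT, 11.7% ± 0.30 (n = 6) in liver and 11.9% ± 1.95 (n = 6) in gut, where replicate 1 had 10.2% ± 0.70 and replicate 2 had 13.6% ± 0.53 (n = 3 each). Gut against liver on this measure gave 0.015 (adjusted p = 0.89). The share of reads divided by the share of clonotypes was 1.38, 1.39 and 1.36 in the WT, STAT3ko and STAT3koPD-1ko libraries before HCT. In liver this quotient ran from 1.27 to 1.40, with a mean of 1.32 ± 0.04 (n = 6), and in gut from 0.82 to 1.07, with a mean of 0.951 ± 0.11 (n = 6). An average TRBV16 clonotype therefore held more reads than the average of its library before HCT and in liver, and about the average in gut, and the ranges of liver and gut did not overlap. The quotient was compared without a test.

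For TRBV15 the quotient was near 1 throughout, with means of 0.994 ± 0.18 (n = 3), 1.02 ± 0.09 (n = 6) and 0.999 ± 0.12 (n = 6) in CD4+ T cells. In CD8+ T cells both members had a smaller share of reads than of clonotypes by group mean, with single exceptions in WT gut replicate 1 (TRBV15, 1.05) and STAT3ko gut replicate 2 (TRBV16, 1.01). TRBV15 had quotients of 0.935 ± 0.06 (n = 3), 0.849 ± 0.05 (n = 6) and 0.954 ± 0.07 (n = 6) before HCT, in liver and in gut, and TRBV16 had 0.853 ± 0.04 (n = 3), 0.798 ± 0.03 (n = 6) and 0.879 ± 0.12 (n = 6).

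**Figure D3:**
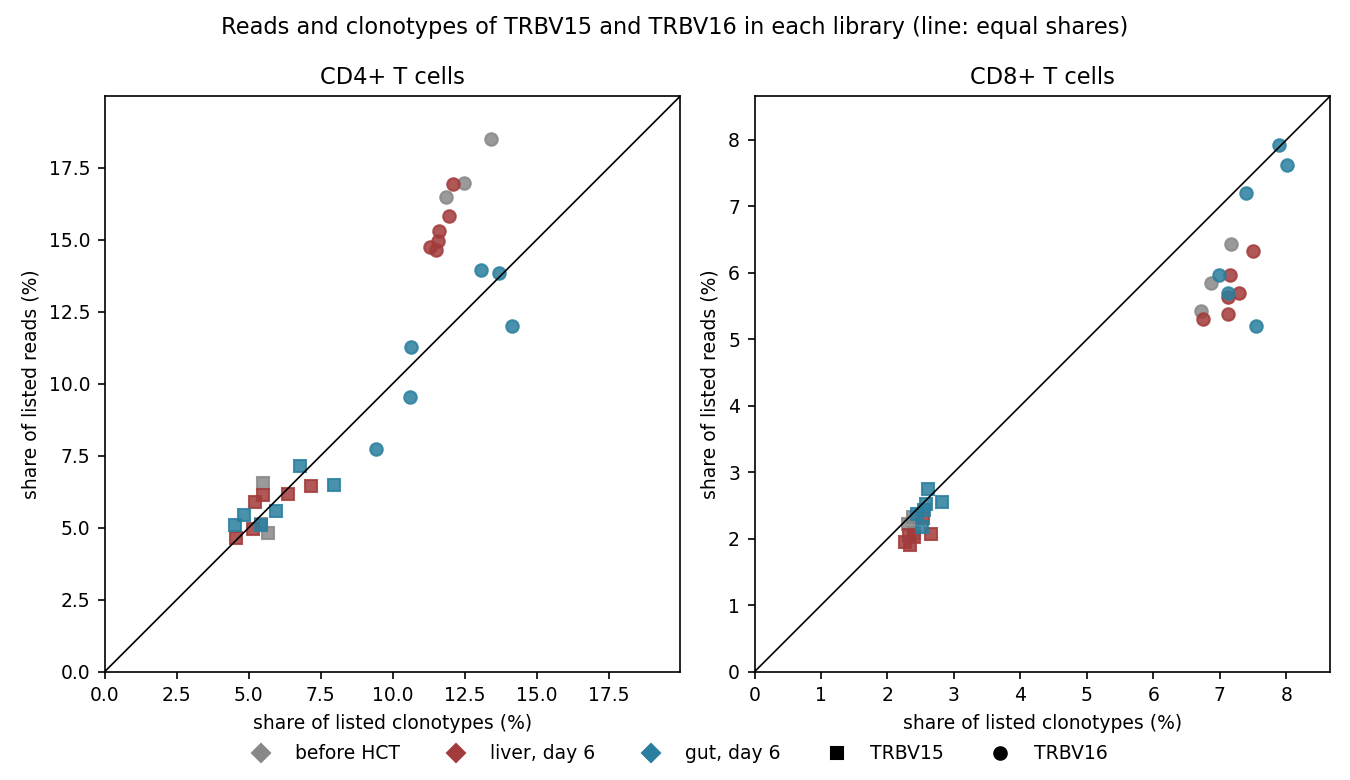
Share of listed reads (y axis, percent) against share of listed clonotypes (x axis, percent) in each library, with tissue in colour and segment as symbol; the line marks equal shares. CD4 TRBV16 lies above the line before HCT and in liver, at quotients from 1.27 to 1.40, and around it in gut, from 0.82 to 1.07.

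In CD8+ T cells both members were scarcer, and only TRBV15 passed a test between tissues. TRBV15 usage before HCT was 2.33% in WT, 2.22% in STAT3ko and 2.09% in STAT3koPD-1ko T cells. In liver it ran from 1.91% to 2.31% with a median of 2.05%, and in gut from 2.17% to 2.75% with a median of 2.48%. Gut and liver overlapped in 1 library each, WT gut replicate 2 at 2.17% and WT liver replicate 1 at 2.31%.

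The means were 2.05% ± 0.14 (SD, n = 6) in liver and 2.47% ± 0.19 (n = 6) in gut, a log2 difference of 0.25 (SE 0.07), 1.19-fold (limma, adjusted p = 0.028), but it turned to -0.17 when taken as percent of all reads. Of the 18 segments tested in CD8+ T cells, 7 passed in this comparison (38.9%), 3 higher and 4 lower, and the median difference was -0.01. The TRBV15 call was lost without any 1 of STAT3ko liver replicate 2, STAT3koPD-1ko gut replicate 2, STAT3koPD-1ko liver replicate 1 and STAT3koPD-1ko liver replicate 2, with differences from 0.22 to 0.30 over all 12 such fits and adjusted p up to 0.077. Without WT gut replicate 2, WT liver replicate 1 or any of these 4, between 1 and 4 segments passed. Replicate 1 alone gave 0.23 (adjusted p = 0.025) and replicate 2 alone 0.27 (adjusted p = 0.10). Against before HCT, TRBV15 differed by 0.15 (SE 0.08, adjusted p = 0.15) in gut, with adjusted p = 0.034 once WT gut replicate 2 was left out, and by -0.10 (SE 0.08, adjusted p = 0.61) in liver.

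TRBV16 usage in CD8+ T cells before HCT was 6.44% in WT, 5.85% in STAT3ko and 5.43% in STAT3koPD-1ko. In liver it ran from 5.30% to 6.33% with a median of 5.67%, and in gut from 5.201% to 7.93% with a median of 6.58%. The lowest gut library, STAT3koPD-1ko replicate 2, lay below all liver libraries, and the highest, STAT3ko replicate 2, lay above them.

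Gut against liver gave 0.19 (SE 0.09, limma, adjusted p = 0.092), and the adjusted p was 0.0498 without STAT3ko gut replicate 1. Gut against before HCT gave 0.14 (SE 0.10, adjusted p = 0.22) and liver against before HCT -0.04 (SE 0.10, adjusted p = 0.80). In gut against before HCT 9 of 18 CD8 segments passed (50%), none of them a member, and the count fell to 4 without the STAT3koPD-1ko and to 0 without the WT library before HCT. In liver against before HCT none passed in limma (0%), with 2 at an unadjusted p under 0.05. The exact permutation test called none there either, but its 84 splits allow no p below 0.0238.

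Among the other segments of the superantigen class in CD8+ T cells, TRBV12-1 was used at 5.90% ± 0.60 (SD, n = 3), 6.12% ± 0.90 (n = 6) and 6.64% ± 0.36 (n = 6) before HCT, in liver and in gut, TRBV12-2 at 6.12% ± 0.98 (n = 3), 6.46% ± 0.41 (n = 6) and 7.44% ± 1.077 (n = 6), and TRBV26 at 1.02% ± 0.29 (n = 3), 0.930% ± 0.11 (n = 6) and 1.40% ± 0.41 (n = 6). In gut against liver 1 of 3 passed as higher, TRBV26 with a log2 difference of 0.50, and 2 of the 4 reference segments passed as lower, TRBV2 and TRBV13-2. In this table too nearly all TRBV26 clonotypes, 2414 of 2415, do not run from C to F or W. Without any 1 of the 4 libraries on which the CD8 TRBV15 call rested, none of the 3 passed, and without STAT3ko liver replicate 1 there were 2 of 3. Of the reference segments 0 passed without STAT3ko liver replicate 2 or STAT3koPD-1ko liver replicate 1, and 1 passed without STAT3ko gut replicate 2, STAT3ko liver replicate 1, STAT3koPD-1ko gut replicate 2, STAT3koPD-1ko liver replicate 2, WT gut replicate 2 or WT liver replicate 1. As percent of all reads none of the 3 passed, with differences from -0.31 to 0.10. Side by side and without a test, both members together held 22.8% ± 1.05 (n = 3) of the CD4 and 8.12% ± 0.63 (n = 3) of the CD8 listed reads before HCT, 21.1% ± 0.78 and 7.77% ± 0.51 in liver (n = 6 each), and 17.2% ± 2.85 and 9.07% ± 1.13 in gut (n = 6 each). The tables were separate, so no test was made between CD4+ and CD8+ T cells.

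**Figure D4:**
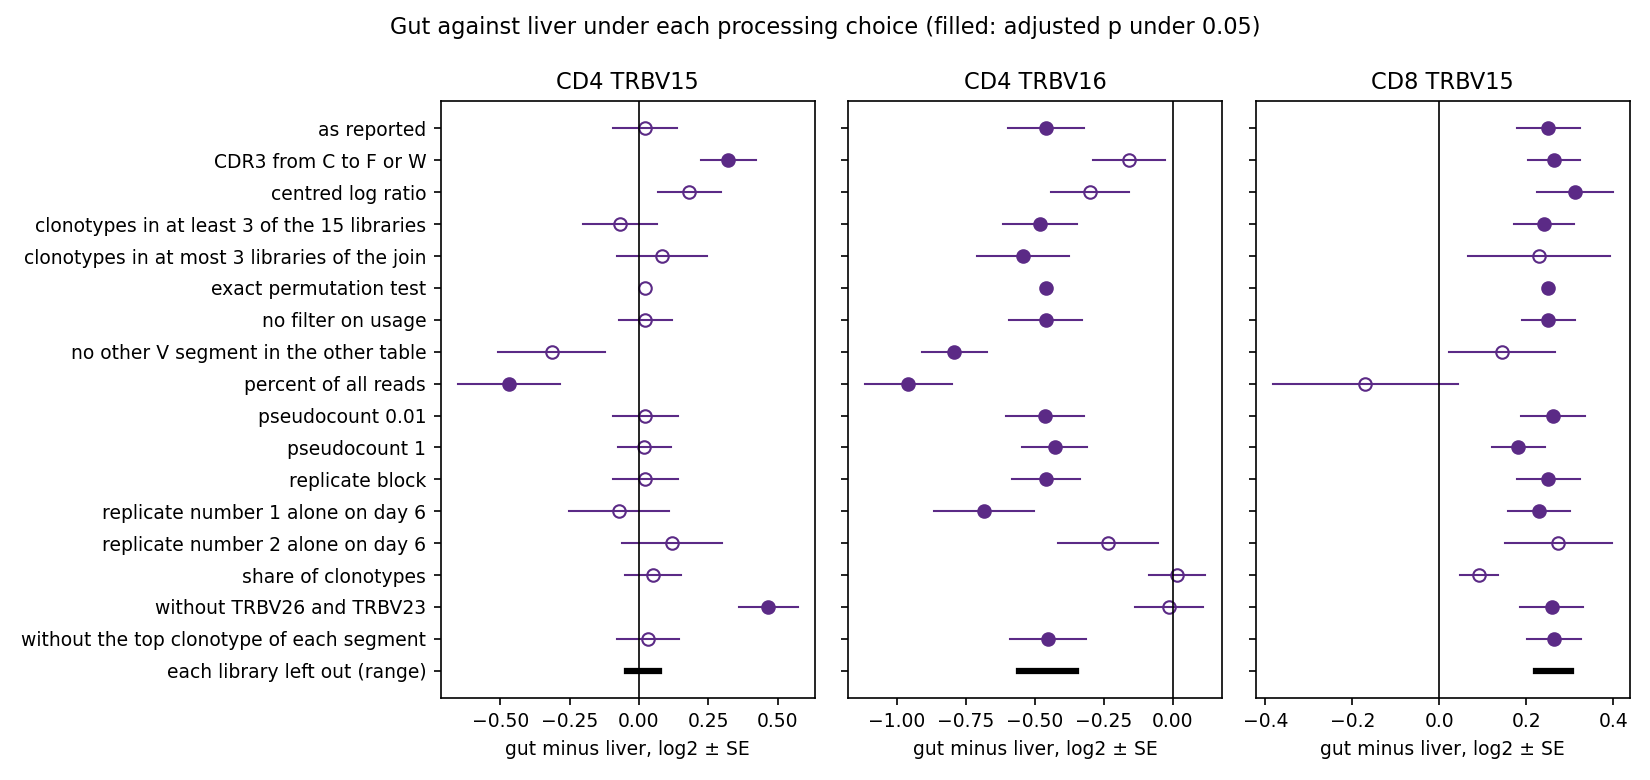
Gut minus liver difference on the log2 scale (x axis, with SE) of 3 results under each processing choice (y axis), with filled symbols where the adjusted p is under 0.05 and a black bar for the range when each library was left out. CD4 TRBV16 moves from -0.46 to -0.015 without TRBV26 and TRBV23 and to 0.015 when each clonotype counts once, CD4 TRBV15 moves between -0.47 and 0.47, and CD8 TRBV15 turns to -0.17 as percent of all reads.

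The study asked what the loss of STAT3 and of PD-1 in the donor T cells changes. Neither member differed between genotypes beyond the spread of the libraries. In CD4+ T cells of day 6, STAT3ko against WT differed by 0.18 (SE 0.14) for TRBV15 and by -0.22 (SE 0.17) for TRBV16 on the log2 scale (limma, adjusted p = 0.69 each). STAT3koPD-1ko against STAT3ko differed by 0.07 (SE 0.14, adjusted p = 0.80) and 0.05 (SE 0.17, adjusted p = 0.88). In CD8+ T cells the first comparison gave -0.07 (SE 0.09, adjusted p = 0.90) for TRBV15 and -0.15 (SE 0.11, adjusted p = 0.62) for TRBV16, and the second 0.02 (SE 0.09, adjusted p = 0.85) and -0.13 (SE 0.11, adjusted p = 0.51). The missed threshold does not show that the genotypes were alike.

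No segment of either table passed in the genotype comparisons in limma (0%). At an unadjusted p under 0.05 there were 0 and 4 of 21 in CD4+ and 1 and 3 of 18 in CD8+ T cells. The exact permutation test called none, but its 70 splits allow no p below 0.0286. A call after adjustment therefore needed many segments at that lowest value, so this result decides little. In CD8 STAT3koPD-1ko against STAT3ko 1 segment, not a member, passed with the replicate number as a block, and 1 passed without WT gut replicate 1. The test of whether the gut minus liver difference itself differed between genotypes was passed by no segment in limma (0%, with at most 1 segment of a table at an unadjusted p under 0.05). For CD4 TRBV16 this difference of differences was -0.12 (SE 0.37, limma, adjusted p = 0.93) for STAT3ko against WT and 0.01 (SE 0.37, adjusted p = 0.98) for STAT3koPD-1ko against STAT3ko.

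Within the segments, the spread of reads over clonotypes was measured by the Shannon effective number, the number of equally frequent clonotypes with the same entropy. For CD4 TRBV16 it was 485 ± 96 (SD, n = 3) before HCT and ran from 600 to 1193 in liver, with a median of 793. In gut it ran from 152 to 1590. The 3 gut libraries of replicate 1 lay at 1054 to 1590 and those of replicate 2 at 152 to 638, so that the replicate numbers did not overlap. Over all segments, CD4 gut replicate 1 listed 21224 to 29839 clonotypes and replicate 2 listed 3418 to 8916. These numbers cover only clonotypes found in at least 2 libraries. For whole repertoires the study reported much lower diversity in liver and gut than before HCT. The CD4 TRBV16 values in liver ran the other way, and the reason was not tested.

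For CD4 TRBV15 the effective number was 209 ± 69 (SD, n = 3) before HCT and ran from 286 to 473 in liver. In gut it was 527 to 602 in replicate 1, above every liver library, and 99.9 to 249 in replicate 2, below every liver library. The CD8 libraries split by number in gut as well. CD8 TRBV15 ran from 115 to 214 in liver, from 305 to 352 in gut replicate 1 and from 93.4 to 150 in gut replicate 2, and CD8 TRBV16 from 334 to 677, from 791 to 900 and from 242 to 447. The gut replicate numbers thus did not overlap for either member in either table. The log2 differences between gut and liver were -0.37 (SE 0.54) and -0.45 (SE 0.57) in CD4+ and 0.26 (SE 0.44) and 0.13 (SE 0.44) in CD8+ T cells for TRBV15 and TRBV16. No segment of either table passed this test (0%), none had an unadjusted p under 0.05, and the adjusted p of the members ran from 0.59 to 0.97.

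TRBJ2-7 had the highest mean of all J segments for each member in each table and tissue, with group means from 20.0% to 26.0% of a member's reads. TRBV15 paired with TRBJ1-1 in 20.4% ± 0.63 (SD, n = 3) of its CD4 reads before HCT, 18.9% ± 2.59 (n = 6) in liver and 19.6% ± 3.71 (n = 6) in gut, against 10.5%, 11.3% and 13.3% over all segments. TRBV16 had 10.4% ± 1.33 (n = 3), 11.1% ± 0.93 (n = 6) and 12.9% ± 2.02 (n = 6) there, close to all segments. TRBJ2-5 made up 17.3% ± 4.56 (n = 3), 16.1% ± 1.39 (n = 6) and 14.9% ± 2.36 (n = 6) of CD4 TRBV16, and 7.62% ± 1.41 (n = 3), 8.36% ± 0.74 (n = 6) and 7.97% ± 2.04 (n = 6) of CD4 TRBV15. These pairings were described without a test between segments.

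The share of TRBJ2 joinings of CD4 TRBV15 was 68.1% ± 3.08 (SD, n = 6) in liver and 64.0% ± 2.79 (n = 6) in gut, a difference of -4.11 points (SE 1.63, limma, adjusted p = 0.16). For CD4 TRBV16 the difference was -2.14 points (SE 1.81, adjusted p = 0.46). For CD8+ T cells it was 2.61 points (SE 3.19, adjusted p = 0.60) for TRBV15 and -2.60 points (SE 1.48, adjusted p = 0.31) for TRBV16. Over all segments 1 of 21 passed in CD4+ T cells (4.76%) and none of 18 in CD8+ T cells (0%, with 3 at an unadjusted p under 0.05).

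Mean CDR3 length, weighted by reads, lay between 13.0 and 14.0 amino acids in every library for both members. Gut minus liver was -0.04 (SE 0.07) and -0.08 (SE 0.07) amino acids for TRBV15 and TRBV16 in CD4+ and -0.11 (SE 0.10) and -0.14 (SE 0.08) in CD8+ T cells (limma, adjusted p from 0.28 to 0.69). Again 1 of 21 segments passed in CD4+ (4.76%) and none of 18 in CD8+ T cells (0%, with 3 at an unadjusted p under 0.05).

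**Figure D5:**
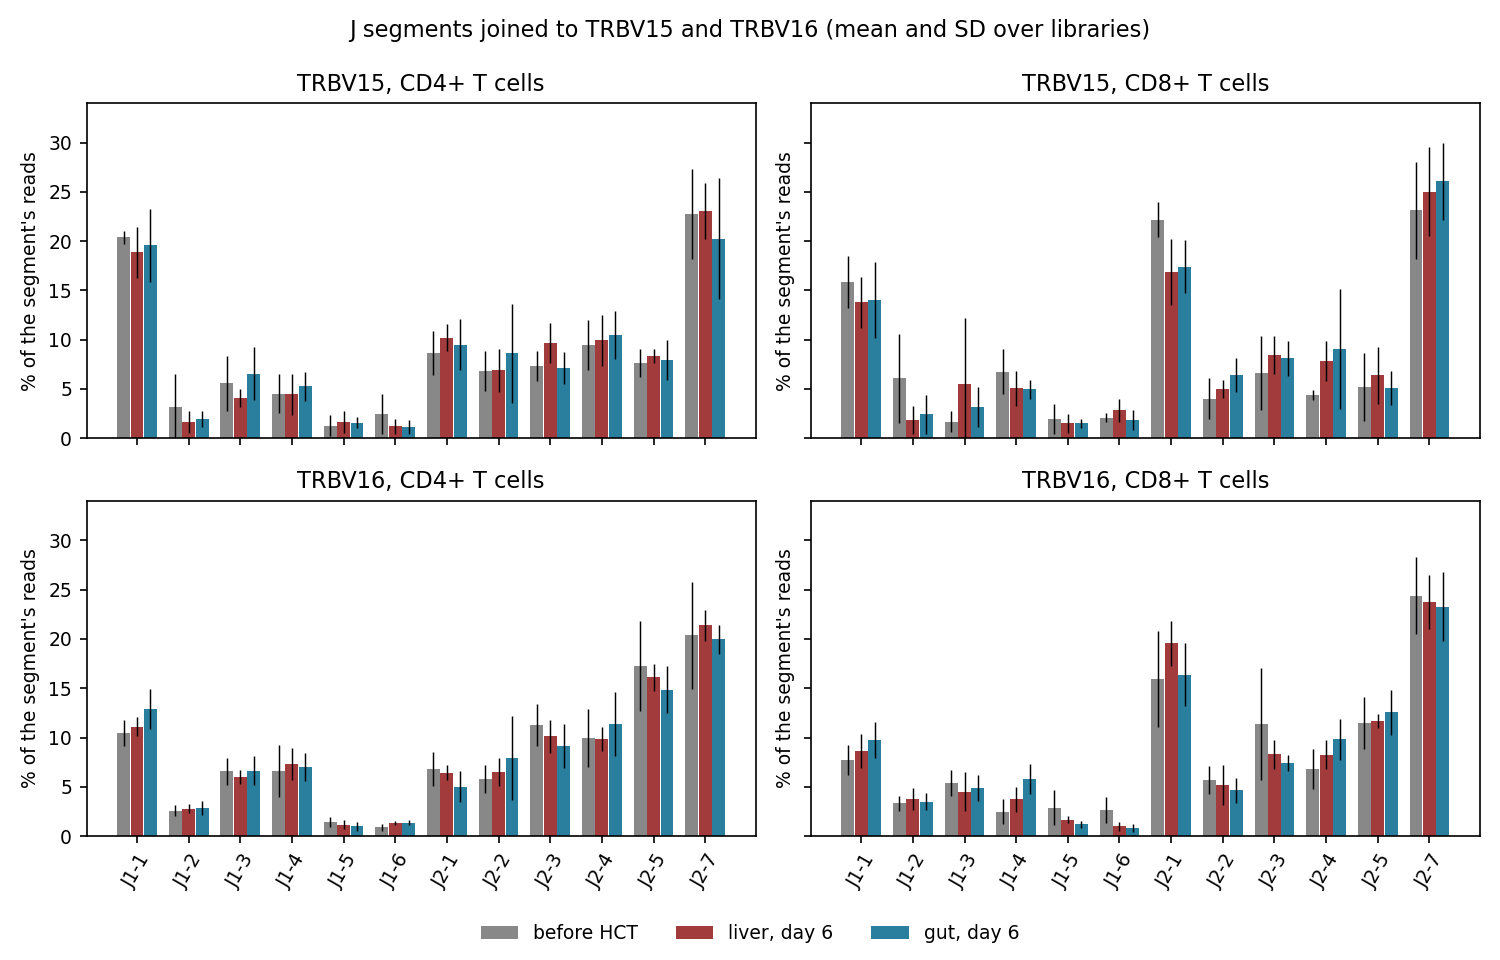
J segments (x axis) joined to TRBV15 and TRBV16, as mean percent of the segment's reads (y axis, from 0) with SD over libraries, by tissue. TRBJ2-7 has the highest mean in each panel and tissue, at 20.0% to 26.0%, and TRBJ1-1 reaches 18.9% to 20.4% with TRBV15 in CD4+ T cells.

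The segments whose usage ran most like that of a member were ranked by Spearman's rho over the 15 libraries of a table, as a description, since shares of 1 total depend on each other. CD4 TRBV16 ran most like TRBV14 (rho 0.86), TRBV13-3 (0.77) and TRBV2 (0.77), and least like TRBV26 (-0.87). CD4 TRBV15 ran most like TRBV3 (0.63), TRBV22 (0.40) and TRBV19 (0.31). CD8 TRBV15 ran most like TRBV26 (0.68), TRBV12-1 (0.47) and TRBV12-2 (0.44), the 3 other segments of the superantigen class, and least like TRBV5 (-0.83). Nearly all of these TRBV26 clonotypes do not run from C to F or W. CD8 TRBV16 ran most like TRBV13-3 (0.43), TRBV15 (0.41) and TRBV4 (0.35). Between both members rho was -0.17 in CD4+ and 0.41 in CD8+ T cells.

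Host-reactive clonotypes were counted with the thresholds of the study, below 0.001% of reads before HCT and above 0.01% in the tissue. They were applied here to the mean over the 3 libraries before HCT and to the mean of both libraries of a genotype and tissue, a choice of this re-analysis. Among CD4+ T cells TRBV16 supplied 99 of 607 in WT, 121 of 827 in STAT3ko and 135 of 868 in STAT3koPD-1ko liver, which is 16.3%, 14.6% and 15.6%. In gut it supplied 46 of 465, 53 of 789 and 43 of 778, which is 9.89%, 6.72% and 5.53%. The 3 gut shares lay below the 3 liver shares, as did the usage of the segment. TRBV15 supplied from 15 to 49 in the 6 sets, 3.23% to 5.65% of all. Of the CD8 sets TRBV15 supplied from 9 to 24 (1.75% to 3.24%) and TRBV16 from 22 to 50 (4.30% to 7.04%). As a share of the clonotypes of the segment present in the set, host-reactive ones made up 2.24%, 3.79% and 4.49% of CD4 TRBV16 in liver, beside 1.57%, 2.83% and 3.18% over all segments, and 1.23%, 2.26% and 1.71% in gut, beside 1.34%, 3.31% and 3.34%. CD4 TRBV16 thus lay above the share of all segments in the 3 liver sets and below it in the 3 gut sets. CD4 TRBV15 lay below it in all 6 sets, at 0.933% to 3.23%. The CD8 shares were 1.05% to 4.02% for TRBV15 and 0.946% to 2.72% for TRBV16, beside 1.39% to 4.25% over all segments, and TRBV15 lay above all segments in WT and STAT3ko gut only, TRBV16 in none of the 6 sets. These are counts and shares without a test.

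Most clonotypes of either table were seen in few libraries, and those of the members were no exception. Of the CD4 clonotypes 77.6% of TRBV15 and 75.1% of TRBV16 were above 0 in 3 or fewer of the 15 libraries, beside 82.8% over all segments, and 78.1% and 79.1% of the CD8 clonotypes, beside 80.6%. In at least 10 libraries were 106 (2.49%) and 306 (3.60%) of the CD4 clonotypes, beside 1.63% over all segments, and 44 (2.24%) and 149 (2.56%) of the CD8 clonotypes, beside 2.38%. All 15 libraries held 6 TRBV15 and 15 TRBV16 clonotypes in CD4+ and 5 and 15 in CD8+ T cells.

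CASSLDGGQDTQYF, whose sequence heads the group above, was 1 of the 15 CD4 TRBV16 clonotypes above 0 in all 15 libraries, chosen among them by its mean, and had TRBV16 in the CD8 table too. It held 0.0858%, 0.173% and 0.139% of reads in WT, STAT3ko and STAT3koPD-1ko T cells before HCT. In liver it ran from 0.0362% to 0.144% and in gut from 0.0187% to 0.163%. The tissues overlapped.

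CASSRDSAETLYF, the highest CD4 TRBV16 clonotype before HCT, held 0.142%, 0.0483% and 0.426% there. In liver it ran from 0.0020% to 0.0430% and in gut from 0.0018% to 0.0280%. All 12 day 6 libraries lay below all 3 libraries before HCT, a separation that its choice as the highest before HCT favours. The CD8 table listed this CDR3 under TRBV12-1.

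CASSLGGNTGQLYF was the highest CD4 TRBV16 clonotype in gut through 2 libraries, with 0.409% in STAT3ko and 0.242% in STAT3koPD-1ko gut replicate 2. The other 4 gut libraries had at most 0.0212%, and liver ran from 0.0018% to 0.0209%. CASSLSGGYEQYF, the highest CD4 TRBV15 clonotype in gut, likewise had 0.277% in STAT3ko gut replicate 2 and at most 0.0077% in the other 5. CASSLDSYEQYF, with TRBV15 in all 15 libraries of CD4+ T cells, ran from 0.0069% to 0.0713% before HCT, from 0.0104% to 0.0487% in liver and from 0.0109% to 0.108% in gut.

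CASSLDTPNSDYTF, the highest CD4 TRBV15 clonotype before HCT, was listed above 0 in STAT3ko libraries only. It held 0.282% before HCT, 0.118% in liver replicate 1 and 0.0019% in gut replicate 1, and was listed at 0 in both replicates 2. It was chosen for its mean before HCT, which rests on this 1 library. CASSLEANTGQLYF, the highest CD4 TRBV15 clonotype in liver, reached 0.259% in STAT3koPD-1ko liver replicate 2.

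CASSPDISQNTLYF, a CD8 TRBV15 clonotype, met the host-reactive thresholds in 3 of 6 sets, each through 1 library. It was listed at 0 before HCT and held 0.0798% in STAT3ko liver replicate 2, 0.0233% in STAT3ko gut replicate 1 and 0.214% in STAT3koPD-1ko gut replicate 2. The remaining 9 day 6 libraries were listed at 0, WT libraries included. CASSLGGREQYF of TRBV16 met the thresholds in 4 sets and was above 0 in all 12 day 6 libraries, from 0.0011% in liver to 0.0483% in gut, and in 1 of 3 before HCT.

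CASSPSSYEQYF, a CD8 TRBV16 clonotype of all 15 libraries, ran from 0.0229% to 0.199% before HCT, from 0.0149% to 0.0434% in liver and from 0.0042% to 0.0628% in gut. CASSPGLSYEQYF was the highest CD8 TRBV16 clonotype in gut through WT gut replicate 1 at 0.365%, with at most 0.0023% in the other 5 gut libraries. The CD4 table listed it under TRBV15, the other member, although its sixth base in the CD8 table is that of TRBV16. Of the 18 clonotypes chosen by these rules, 3 had the same V segment in both tables.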

How the data were processed

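TCRB libraries of sorted CD4+ and CD8+ T cells were sequenced by the authors, who called clonotypes with miXCR and merged the libraries of a table with VDJTools. The setting of that join is not given in the sources used here, but each CDR3 amino acid sequence stands in a table once. The values they deposited are fractions of a library's reads, with no counts per library, so depth is unknown and no counting interval can be given. Of each join 15 libraries are analysed here, and clonotypes listed in at least 2 libraries of the join were kept by the authors. The pooled count and frequency columns were not used.

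Groups came from the labels. Usage was summed per V segment and tested as log2(percent + 0.1) with limma 3.58.1 in R 4.3.3 over the 21 CD4 and 18 CD8 segments whose usage averaged 0.5% or more, with Benjamini-Hochberg adjustment over a table's segments and a threshold of 0.05. Tissues were compared with genotype as a term, over all 15 libraries where before HCT was involved and over the 12 day 6 libraries otherwise, and genotypes over the day 6 libraries with tissue as a term. All limma and exact permutation tests were two-sided. The study's methods speak of 2 batches, each made from a pool of 3 mice, but no label ties a replicate number to a batch, so p-values measure the spread between these libraries, and the part of the batch in it was not tested. Scripts were tested on simulated data. Named clonotypes were, for each segment and table, those with the highest mean before HCT, in liver and in gut, the most libraries and the most host-reactive sets (ties by mean), and named segments were the members, both lists and the 3 most alike segments. TRBV23, the least alike segments and V segments of the other table were named after their values were seen. Members and lists were chosen with earlier results of these data known.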

Additional observations from a re-analysis of the deposited data

Results flagged for a closer look

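Each group of 6 libraries (liver or gut) was searched for a highest or lowest library whose gap to the nearest other was large against the range of the group (Dixon's criterion). Of 76 groups 20 had such a library. Chance gives about 1 in 20 for groups not chosen by their values, which does not apply here: all but 1 of these concern single clonotypes, most of them named for a high mean in a tissue or for the host-reactive thresholds, and that choice favours 1 high library. CD8 TRBV15 had a mean CDR3 length of 13.0 amino acids in WT gut replicate 2, below the 13.4 to 13.6 of the other 5 gut libraries.

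Among the CD4 TRBV15 clonotypes, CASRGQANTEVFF stood apart at 0.0240% of reads in WT liver replicate 2 and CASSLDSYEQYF at 0.108% in STAT3ko gut replicate 2. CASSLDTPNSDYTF did so at 0.00192% in STAT3ko gut replicate 1 and 0.118% in STAT3ko liver replicate 1, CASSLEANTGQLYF at 0.0232% in STAT3koPD-1ko gut replicate 1 and 0.259% in STAT3koPD-1ko liver replicate 2, and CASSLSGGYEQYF at 0.277% in STAT3ko gut replicate 2. Of the CD4 TRBV16 clonotypes, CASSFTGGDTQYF stood apart at 0.0333% in STAT3koPD-1ko gut replicate 2 and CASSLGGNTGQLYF at 0.0209% in WT liver replicate 1.

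Of the CD8 TRBV15 clonotypes, the one with the highest mean in liver, joined to TRBJ1-3, had 0.00419% in WT gut replicate 1 and 0.271% in WT liver replicate 1, and the one with the highest mean before HCT, joined to TRBJ2-1, had 0.0222% in WT liver replicate 1. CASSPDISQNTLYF had 0.214% in STAT3koPD-1ko gut replicate 2 and 0.0798% in STAT3ko liver replicate 2. Among the CD8 TRBV16 clonotypes, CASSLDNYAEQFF had 0.147% in STAT3koPD-1ko liver replicate 2, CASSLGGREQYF 0.0483% in STAT3koPD-1ko gut replicate 2 and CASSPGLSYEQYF 0.365% in WT gut replicate 1. The highest CD8 TRBV16 clonotype before HCT, joined to TRBJ2-3, had 0.00629% in WT gut replicate 1 and 0.0619% in WT liver replicate 1. No explanation of these values was tested.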

How the results depend on the processing

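Values are differences on the log2 scale. Restricting to clonotypes in at most 3 libraries of the join, or with no other V segment in the other table, was chosen after seeing the data, and the genotype differences of the gut minus liver contrast were computed under the reported setting only. Causes were not tested, except that removing TRBV26 and TRBV23 alters the total by construction, as does keeping CDR3s from C to F or W, which removes TRBV26. Deviations of equally numbered libraries correlated by 0.011 to 0.18 (CD4) and 0.13 to 0.30 (CD8) between gut and liver of a genotype, by 0.36 to 0.50 and 0.51 to 0.87 between gut libraries of different genotypes, and by -0.29 to 0.23 and -0.17 to 0.34 between liver libraries. The numbers were not taken as pairing, since not every pair lay above 0.1, although the CD8 pairs of gut with liver and all pairs of gut did. The reported fits took all libraries as independent, although some libraries of a genotype shared many clonotypes, as given above. With the replicate block, gut against liver stayed at -0.46 for CD4 TRBV16 (adjusted p = 0.0040) and 0.25 for CD8 TRBV15 (adjusted p = 0.016), and no call of a member changed.

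CD4 TRBV16 in gut against liver was -0.015 without TRBV26 and TRBV23, -0.16 for CDR3s from C to F or W, -0.30 as centred log ratio, -0.24 in replicate 2 alone and 0.015 as share of clonotypes. Against before HCT the call was lost at -0.086 (without TRBV26 and TRBV23), -0.26 (C to F or W), -0.091 (share of clonotypes) and, in the exact permutation test, at -0.63 (adjusted p = 0.050). CD4 TRBV15 in gut passed at 0.47 and 0.32 against liver and 0.62 and 0.44 against before HCT without TRBV26 and TRBV23 and for CDR3s from C to F or W. It turned to -0.068 (at least 3 libraries), -0.31 (no other V segment), -0.47 (all reads) and -0.073 (replicate 1 alone) against liver, and to -0.31, -0.45 and -0.021 (the last 3 settings) against before HCT. CD8 TRBV15 in gut against liver was 0.23 (at most 3 libraries), 0.14 (no other V segment), 0.27 (replicate 2 alone), 0.090 (share of clonotypes) and -0.17 (all reads), and against before HCT -0.078 (no other V segment) and -0.31 (all reads). CD8 TRBV16 turned to -0.25 against liver and -0.33 against before HCT as percent of all reads. Liver against before HCT turned for CD8 TRBV15 to 0.064 (at most 3 libraries) and 0.031 (share of clonotypes) and for CD8 TRBV16 to 0.096, 0.048 (the same settings) and 0.014 (no other V segment). STAT3ko against WT turned to -0.075 (replicate 1 alone) for CD4 and 0.045 (replicate 2 alone) for CD8 TRBV15. STAT3koPD-1ko against STAT3ko turned for CD4 TRBV15 to -0.064 (at least 3 libraries) and -0.036 (replicate 2 alone), for CD4 TRBV16 to -0.071 (replicate 2 alone) and for CD8 TRBV15 to -0.0095 (centred log ratio), -0.010 (without the top clonotype), -0.034 (at least 3 libraries) and -0.072 (all reads).

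Leaving out each library gave -0.044 to 0.072 (CD4 TRBV15) and 0.22 to 0.30 (CD8 TRBV15) and 0.12 to 0.24 (CD8 TRBV16) in gut against liver, 0.11 to 0.20 for CD8 TRBV15 in gut against before HCT, -0.0039 to 0.13 for CD4 TRBV15 in liver against before HCT, and for STAT3koPD-1ko against STAT3ko -0.014 to 0.17 (CD4 TRBV15), -0.12 to 0.19 (CD4 TRBV16) and -0.010 to 0.041 (CD8 TRBV15). Values with no call also moved by over 1.5 times: the effective number ran from -0.65 to -0.049 and -0.76 to -0.065 (CD4 TRBV15, TRBV16) and 0.034 to 0.50 and -0.12 to 0.35 (CD8), the CD8 TRBV15 TRBJ2 share from 0.46 to 4.38 points, CD4 TRBV16 in STAT3ko against WT from -0.36 to -0.051, and CD8 TRBV16 in STAT3koPD-1ko against STAT3ko from -0.20 to -0.028, among others.

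Segments passing in CD4 gut against liver fell from 18 to 9 without TRBV26 and TRBV23 or for CDR3s from C to F or W and 6 as share of clonotypes, and in gut against before HCT from 17 to 10 without TRBV26 and TRBV23. In CD8 gut against liver 7 became 4 (C to F or W, replicate 2 alone), 3 (at most 3 libraries, no other V segment, share of clonotypes) or 2 (at least 3 libraries, exact test), and in gut against before HCT 9 became 5 (at most 3 libraries, replicate 2 alone) or 0 (exact test, where 84 splits allow no p below 0.0238). CD4 liver against before HCT went from 2 to 0 or 1, also to 1 without the STAT3koPD-1ko library before HCT. Comparisons with no segment passing had 1 or 2 under single settings, among them 1 in CD8 STAT3koPD-1ko against STAT3ko with the replicate block, no member.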
